A study of Mus musculus with 6 samples.

Results

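Basement membrane genes were followed in RNA from the dental pulp of wild-type (WT) mice and of mice homozygous for loss of Mmp13, a secreted collagenase of the matrix metalloproteinase family. The group has 31 genes, chosen by symbol from the 53342 genes of the table. They encode the chains of collagen IV, most laminin chains, the nidogens, perlecan, agrin, further collagens of the basement membrane zone and several smaller partners. The study sequenced 6 pulp libraries, 3 from WT mice and 3 from Mmp13-/- mice, all on the C57BL/6 background and aged 3 months. Each library came from an independent biological sample. Values below are given in the order of the sample numbers, which are 2, 4 and 5 for WT and 1, 2 and 6 for Mmp13-/-. Mmp13-/- mice lacked the gene in every tissue, so pulp cells were not the sole cells affected, and no other allele or agent was named for either genotype. The tooth is given as a molar in the labels and an incisor in the study's methods, and RNA extraction as by column kit and by TRIzol, respectively.

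A basement membrane is a thin sheet of matrix that lies under epithelium and endothelium and around muscle fibers, Schwann cells and fat cells. Laminin trimers, each of an alpha, a beta and a gamma chain, assemble into a network on the cell surface. Collagen IV trimers form a second, covalently crosslinked network, and nidogens and the heparan sulfate proteoglycans perlecan and agrin tie the networks together. In a tooth, such sheets surround pulp capillaries and nerves and lie beneath dental and gingival epithelium.

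Totals ranged from 28442936 to 29980236 counts in WT and from 21561420 to 26547121 in Mmp13-/-, and a gene at 3 counts stood at 0.0952 to 0.174 CPM (counts scaled to a common total per library). Raw counts of the Mmp13 transcript itself, a check of the genotype labels, were 1069, 1139 and 827 in WT, whereas Mmp13-/- libraries had 10.2, 32.9 and 40.4. Mmp13-/- sample 6 stood apart, because a single satellite-repeat gene model, Gm10800, held 30.5% of its counts, against 6.88% in Mmp13-/- sample 2. Odorant and vomeronasal receptor genes, which pulp is not known to use, summed to 17.81 to 20.81 CPM in WT and to 307.7, 355.7 and 1197 in Mmp13-/-. Odontoblast markers were present in all libraries, with Dspp at normalized counts of 14160 to 65457. Muscle was present too, since the titin gene Ttn was the most abundant gene in the 3 WT libraries, at 5.19% to 5.95% of counts. Ttn was also the most abundant gene in Mmp13-/- sample 1, at 4.48%, and Gm10800 was so in Mmp13-/- samples 2 and 6.

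All 31 basement membrane genes passed the filter on low counts, and 24534 genes were tested. Calls rest on edgeR's quasi-likelihood test, at an adjusted p under 0.05 together with a change over 2-fold. In Mmp13-/- pulp 12 of the 31 genes fell more than 2-fold and 0 rose. Of all genes tested 9.68% fell more than 2-fold and 20.4% rose. At any fold 19 of the 31 fell, 0 rose and 12 did not pass, against 24.3% of all genes that fell and 27.3% that rose. In 18 of the 31, every Mmp13-/- sample lay below every WT sample, which held for 29.1% of all genes, and in 0 did every one lie above, against 31.8%. The median log2 fold change over the 31 was −0.71, and 27 of them had a negative value. Over all genes tested the median was 0.10. At an unadjusted p under 0.05 in edgeR, 1 of the 31, Frem1, was higher. DESeq2 and limma on the deposited log2 values also gave 0 that rose.

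The fall went with base composition. GC content, the percentage of G and C in a gene's longest transcript, ran from 47.7% to 61.6% in these genes, and its median was 53.8% against 49.1% in all genes tested. Over the 31 genes, log2 fold change and GC content had a Spearman rho of −0.82 and a Pearson r of −0.85. Over 24492 tested genes with a GC value the rho was −0.51. These are descriptions across genes of the same 6 libraries, and genes are not independent replicates. Of the 13 basement membrane genes with a GC content of 55% or more, 11 fell over 2-fold and all 13 passed at any fold, with a median of −1.37. Among all genes of that GC content 30.9% fell over 2-fold and 55.7% fell at any fold. Of the 18 with less GC, 1 (Col4a5, at 51.5%) fell over 2-fold and 6 fell at any fold, with a median of −0.20. The shares for all genes with less GC were 4.39% and 16.4%.

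**Figure D1:**
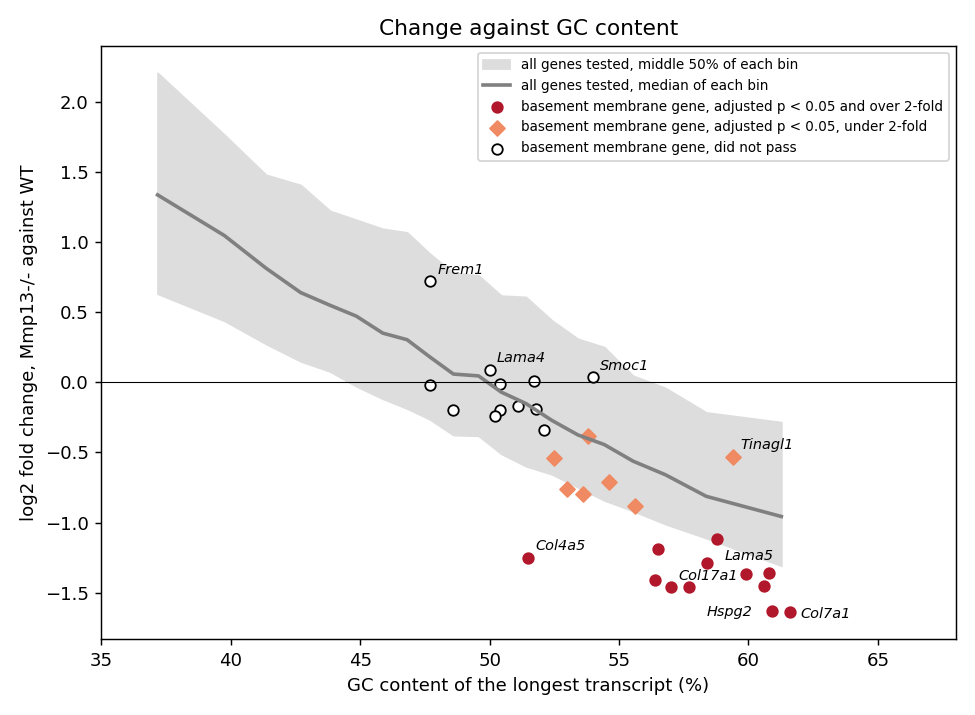
Log2 fold change of Mmp13-/- against WT (vertical axis) plotted against GC content of the longest transcript in percent (horizontal axis). The line is the median and the band the middle 50% of all genes tested in bins of GC content, and points are the 31 basement membrane genes. All genes slope downward from low to high GC, and 11 of the 12 genes that fell over 2-fold lie at a GC content of 55% or more.

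Each library was therefore also fitted with a smooth correction for GC content, which by construction removes the slope over the genes fitted. Under it 0 of the 31 genes changed over 2-fold in edgeR, also at an unadjusted p under 0.05, against 2.38% of all genes that fell and 17.7% that rose. At any fold 6 fell, Col4a1, Col4a5, Hspg2, Col15a1, Col7a1 and Col17a1, all of which were among the 19 above, and 10.9% of all genes did so. Another 3 rose, Lama3, Lama4 and Tinagl1, against 26.4% of all genes. The median of the 31 became 0 and that of all genes 0.28. Over the 31 genes, the Spearman rho of GC content and log2 fold change was still −0.57. Whether the slope arose in the tissue or in library preparation was not tested, so the corrected value is given below wherever it ends or adds a call.

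**Figure D2:**
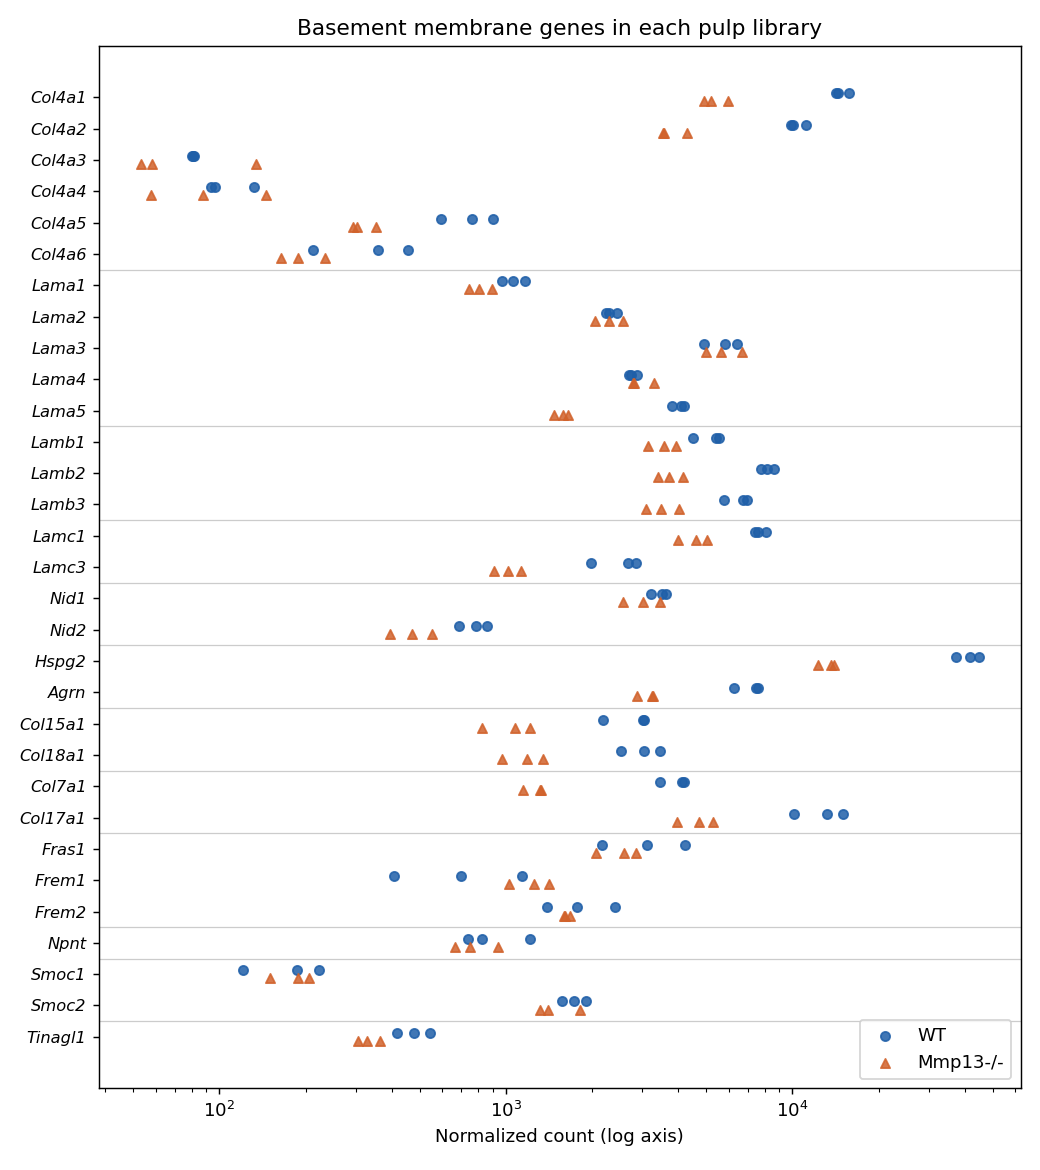
Normalized counts on a log axis for the 31 basement membrane genes, grouped by role, in each WT library (circles) and each Mmp13-/- library (triangles). Triangles lie wholly to the left of circles for the main collagen IV chains, Lama5, the beta and gamma laminin chains, the proteoglycans and collagens XV, XVIII, VII and XVII, while the genotypes overlap for Lama2, Lama3, Lama4, Nid1 and the Fraser complex genes.

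Collagen IV is built from 6 chains whose genes sit head to head in pairs. Col4a1 and Col4a2 encode the trimer found in nearly all basement membranes, and both fell. Col4a1 had normalized counts of 14398, 15714 and 14157 in WT libraries and of 5197, 5970 and 4937 in Mmp13-/- libraries, a 2.75-fold lower level (log2 fold change −1.46 ± 0.17 SE, adjusted p = 0.000182). Col4a2 had 9931, 11170 and 10019 in WT and 3529, 4299 and 3552 in Mmp13-/- (−1.45 ± 0.17 SE, adjusted p = 0.000171). The genotypes were far apart for both chains, and samples within a genotype differed by at most 1.22-fold. After the GC correction Col4a1 still passed at a smaller size (−0.49, adjusted p = 0.0117), and Col4a2 did not (−0.28, adjusted p = 0.0845).

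Per kilobase of exon, Col4a1 outnumbered Col4a2 by 1.26 to 1 in both genotypes. On the log2 scale this ratio was 0.36, 0.32 and 0.33 in WT libraries and 0.39, 0.30 and 0.30 in Mmp13-/- libraries. The genotype difference of −0.01 lay within the spread of the samples (exact two-sided permutation test, p = 0.8). After the GC correction the difference was −0.21 and the genotypes no longer overlapped (0.41 to 0.47 in WT, 0.19 to 0.27 in Mmp13-/-). With 3 samples against 3 this test cannot give a p below 0.1. Both chains together held 95.3% ± 1.06 of all collagen IV counts per kilobase in WT and 93.5% ± 1.04 in Mmp13-/- (SD, n = 3 each).

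The start regions of the paired genes are shown because each pair is read outward from neighboring starts. Sequences are the plus strand of GRCm38, taken from RefSeq promoter windows, with capitals marking a GC box (GGGCGG or its reverse complement CCGCCC) or a CCAAT box (CCAAT or its reverse complement ATTGG). Col4a1 (chr8:11198423-11312826, minus strand) and Col4a2 (chr8:11312805-11449287, plus strand) overlap by 22 bases at chr8:11312805-11312826, within the first exon of each. Col4a4 (chr1:82448423-82586849) and Col4a3 (chr1:82586921-82722059) are separated by 71 bases at chr1:82586850-82586920. Annotated starts of Col4a6 (chrX:141165403-141474076) and Col4a5 (chrX:141475385-141689234) lie 1308 bases apart, and the stretch before each is given, chrX:141474077-141474326 for Col4a6 and chrX:141475169-141475384 for Col4a5.
Col4a1 and Col4a2: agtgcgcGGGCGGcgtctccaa
Col4a4 and Col4a3: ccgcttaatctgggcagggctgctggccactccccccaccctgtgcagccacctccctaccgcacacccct
upstream of Col4a6: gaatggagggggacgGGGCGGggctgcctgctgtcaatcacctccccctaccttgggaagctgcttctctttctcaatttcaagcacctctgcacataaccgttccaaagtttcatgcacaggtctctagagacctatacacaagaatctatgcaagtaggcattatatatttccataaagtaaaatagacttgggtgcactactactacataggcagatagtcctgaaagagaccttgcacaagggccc
upstream of Col4a5: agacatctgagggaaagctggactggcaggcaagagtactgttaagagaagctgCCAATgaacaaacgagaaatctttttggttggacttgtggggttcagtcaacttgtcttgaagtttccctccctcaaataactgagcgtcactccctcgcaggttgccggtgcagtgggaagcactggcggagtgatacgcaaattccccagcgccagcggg

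The 22 bases common to Col4a1 and Col4a2 are 72.7% G and C and hold a GC box. The 71 bases between Col4a4 and Col4a3 are 69% G and C and hold neither motif. RefSeq windows, running from 250 bases before to 50 after a start, were matched for 21 of the 31 genes and gave 27 windows. A GC box was in 55.6% of these and in 35.7% of the windows of all genes, and a CCAAT box was in 37% and 37.4%. The windows also differed in base composition, with a median of 60.3% G and C against 52.7%, and a GC box is made only of G and C. A match of letters is a description and not evidence of a bound factor.

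The minor collagen IV chains differed from one another. Col4a3 and Col4a4, known for the basement membrane of the kidney glomerulus and mutated in Alport syndrome, were the least abundant of the 31 genes per kilobase. Col4a3 had normalized counts of 81.6, 81.1 and 80.5 in WT and of 53.3, 58.4 and 134 in Mmp13-/-. Col4a4 had 132, 96.4 and 93.7 in WT and 58.0, 87.5 and 145 in Mmp13-/-. In both genes Mmp13-/- sample 6 was the highest of all 6 libraries, and neither gene passed. At the receptor genes' rate per kilobase, that library would show 47.7 counts of Col4a3 and 50.8 of Col4a4, and its raw counts were 1.8 and 1.82 times these values. Without sample 6 the log2 fold changes were −0.53 (adjusted p = 0.0809) and −0.56 (adjusted p = 0.119).

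Col4a5 and Col4a6 form a trimer of epithelial and smooth muscle basement membranes. Col4a5 had 901, 763 and 596 in WT and 352, 292 and 302 in Mmp13-/- (−1.25 ± 0.18 SE, adjusted p = 0.000414), and it kept the largest fall of all 31 genes under the GC correction (−0.79, adjusted p = 0.00979). Col4a6 had 454, 357 and 212 in WT and 234, 188 and 164 in Mmp13-/-. Its change of −0.80 passed (adjusted p = 0.0289), but WT sample 5 lay inside the Mmp13-/- range, and the call was lost without Mmp13-/- sample 6 (−0.69, adjusted p = 0.0905), without WT sample 2 (−0.61, adjusted p = 0.0748) and without WT sample 4 (−0.80, adjusted p = 0.0663). The GC correction ended it too (−0.15, adjusted p = 0.684). Col4a5 exceeded Col4a6 per kilobase by 2.71 to 1 in WT and by 1.93 to 1 in Mmp13-/-. The log2 ratios of the genotypes did not overlap (difference −0.49, exact two-sided permutation test, p = 0.1, the smallest possible), also after the GC correction (difference −0.68). With the receptor genes' background rate subtracted, the genotypes were no longer fully apart (difference −0.34, exact two-sided permutation test, p = 0.3).

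Laminin chains fell unequally. Of the 10 chains measured, 3 fell over 2-fold (Lama5, Lamb2 and Lamc3), 4 more fell by less (Lama1, Lamb1, Lamb3 and Lamc1) and 3 alpha chains did not pass (Lama2, Lama3 and Lama4). Lama5, the alpha chain of most adult epithelial basement membranes and also of vessels, had 4101, 4199 and 3812 in WT and 1647, 1469 and 1580 in Mmp13-/-. It fell 2.58-fold (−1.37 ± 0.14 SE, adjusted p = 0.000113), and with the GC correction it did not pass (−0.24, adjusted p = 0.093).

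Lama4, the other alpha chain of endothelium, had 2729, 2882 and 2702 in WT and 2809, 3285 and 2772 in Mmp13-/- (0.09 ± 0.14 SE, adjusted p = 0.612). The genotypes overlapped, and with the GC correction Lama4 rose (0.43, adjusted p = 0.011). Lama2, the alpha chain around muscle fibers and Schwann cells, had 2239, 2283 and 2446 in WT and 2045, 2560 and 2287 in Mmp13-/- (−0.02, adjusted p = 0.937). Lama3, the alpha chain of the hemidesmosome laminin of epithelium, had 6428, 5802 and 4902 in WT and 6649, 5649 and 4995 in Mmp13-/- (0.01, adjusted p = 0.955). Both overlapped, and neither had a stable sign. Lama2 turned positive without factors, with upper-quartile factors and with the GC correction, and Lama3 turned negative with DESeq2, with limma and with no filter. After the GC correction Lama3 rose (0.50, adjusted p = 0.0241). Lama1, chiefly an embryonic chain, had 1164, 1056 and 973 in WT and 892, 809 and 743 in Mmp13-/-, and its fall was small (−0.38 ± 0.14 SE, adjusted p = 0.041). Lama1 lost its call in 4 of the 6 fits that left out a library, and its value under the GC correction was 0.28 (adjusted p = 0.0823).

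Expressed per kilobase, Lama5 made up 25.9% ± 0.843 of the alpha chain counts in WT and 12.1% ± 1.09 in Mmp13-/- (SD, n = 3 each). Lama3 was the most abundant alpha chain in both, at 38.7% ± 2.72 and 46.8% ± 3.68 (SD, n = 3 each). Lama4 held 16.8% ± 1.03 and 21.5% ± 2.1 (SD, n = 3 each). The log2 ratio of Lama4 to Lama5 was −0.67, −0.63 and −0.58 in WT libraries and 0.69, 1.08 and 0.73 in Mmp13-/- libraries, so the more abundant of the pair differed between the genotypes. The difference was 1.46 (exact two-sided permutation test, p = 0.1, the smallest possible; 0.167 after adjustment over 10 pairs). The genotypes also stood apart after the GC correction, where the difference was 0.67.

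All 3 beta chains fell. Lamb2, abundant in vessels and at the neuromuscular junction, had 7754, 8660 and 8137 in WT and 3708, 4159 and 3404 in Mmp13-/- (−1.12 ± 0.16 SE, adjusted p = 0.000430). Lamb3, the epithelial partner of Lama3, had 6723, 6972 and 5769 in WT and 4016, 3469 and 3086 in Mmp13-/- (−0.88 ± 0.17 SE, adjusted p = 0.002). Lamb1, the widespread beta chain, had 4501, 5568 and 5395 in WT and 3552, 3920 and 3139 in Mmp13-/- (−0.54 ± 0.16 SE, adjusted p = 0.0187). No WT library overlapped an Mmp13-/- library in any of these. The Lamb1 call was lost when WT sample 4 (−0.53, adjusted p = 0.0651) or WT sample 5 (−0.58, adjusted p = 0.0599) was left out. Corrected for GC, the 3 values were −0.07, −0.07 and 0.02 and none passed. Of the beta chain counts per kilobase, Lamb1 held 18.2% ± 1.62 in WT and 23.7% ± 0.959 in Mmp13-/- (SD, n = 3 each). Its log2 ratio to Lamb2 was higher by 0.58 in Mmp13-/- without overlap (exact two-sided permutation test, p = 0.1), and by 0.10 after the GC correction.

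Among the gamma chains, Lamc1, a part of most laminins, had 7399, 8072 and 7611 in WT and 4620, 5037 and 4005 in Mmp13-/- (−0.76 ± 0.16 SE, adjusted p = 0.00351). Lamc3, a rarer gamma chain, had 1990, 2853 and 2662 in WT and 911, 1020 and 1130 in Mmp13-/- (−1.29 ± 0.17 SE, adjusted p = 0.000294). Both fell without overlap, and with the GC correction neither passed (−0.15 and −0.27). Exons of Lamc3 share 6.27% of their bases with an overlapping gene, and the counting was not stated to use strand.

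**Figure D3:**
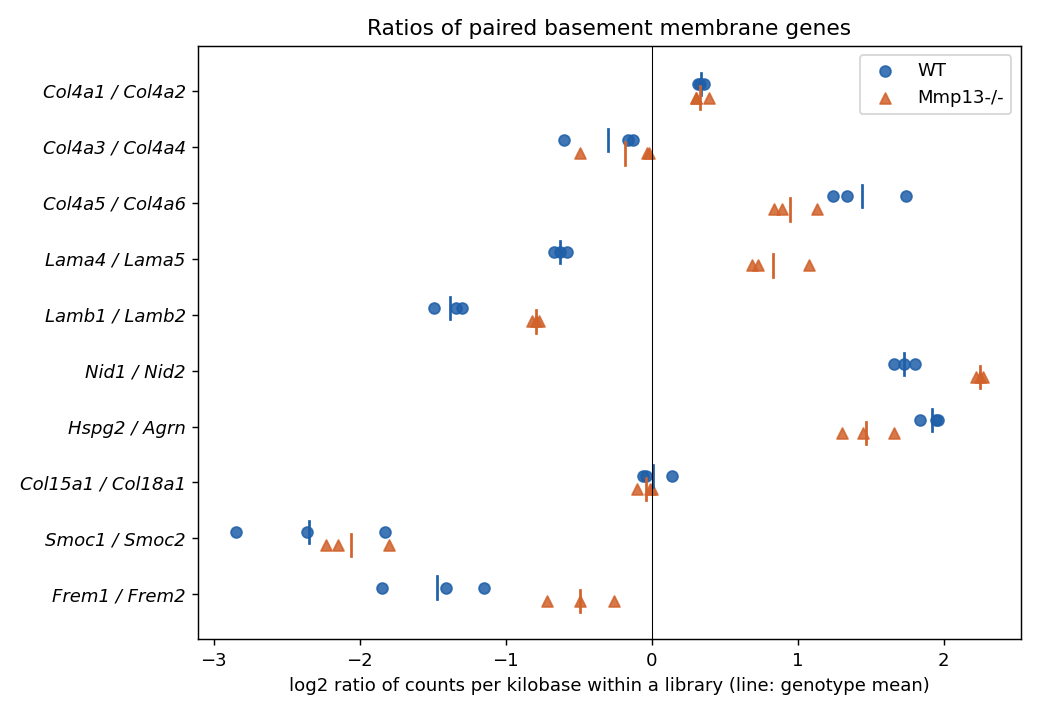
Log2 ratio of counts per kilobase within each library for 10 pairs of basement membrane genes, with WT libraries as circles, Mmp13-/- libraries as triangles and a short line at each genotype's mean. Col4a1 to Col4a2, without a GC correction, overlaps between genotypes, whereas Lama4 to Lama5 lies below 0 in the 3 WT libraries and above 0 in the 3 Mmp13-/- libraries.

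Perlecan and agrin, the heparan sulfate proteoglycans, both fell. Hspg2 (chr4:137468769-137570630), which encodes perlecan, was the most abundant of the 31 genes per kilobase, at 107 ± 9.52 CPM per kilobase in WT and 34.2 ± 2.15 in Mmp13-/- (SD, n = 3 each). WT libraries had normalized counts of 41683, 44698 and 37370 and Mmp13-/- libraries 12318, 13663 and 13929, a 3.1-fold lower level (−1.63 ± 0.20 SE, adjusted p = 0.000207). Corrected for GC, it still passed (−0.44, adjusted p = 0.0413). Hspg2 made up 16.1% ± 0.785 of the counts per kilobase of all 31 genes in WT and 10.8% ± 1.04 in Mmp13-/- (SD, n = 3 each). Agrn, whose product clusters acetylcholine receptors at the neuromuscular junction, had 7574, 7485 and 6254 in WT and 3256, 3237 and 2865 in Mmp13-/- (−1.19 ± 0.16 SE, adjusted p = 0.000324), and did not pass with the GC correction (−0.31, adjusted p = 0.0672). The log2 ratio of Hspg2 to Agrn was lower by 0.45 in Mmp13-/- without overlap (exact two-sided permutation test, p = 0.1), but the genotypes overlapped after the GC correction.

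Nidogens, which bridge laminin and collagen IV, moved differently. Nid2 had 859, 787 and 685 in WT and 471, 554 and 395 in Mmp13-/- and fell (−0.71 ± 0.16 SE, adjusted p = 0.00515). Nid1 had 3634, 3511 and 3205 in WT and 3001, 3464 and 2567 in Mmp13-/-, where Mmp13-/- sample 2 lay inside the WT range (−0.20 ± 0.16 SE, adjusted p = 0.329). The Nid1 to Nid2 ratio was 3.32 in WT and 4.74 in Mmp13-/-, without overlap (exact two-sided permutation test, p = 0.1). After that correction Nid2 stood at 0.01 and the difference in ratio at 0.16. Nid2 shares 8.45% of its exon bases with Rtraf, the largest shared part among the 31 genes.

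Collagens XV and XVIII, the multiplexins of vessel and epithelial basement membranes, fell by nearly the same amount. Col15a1 had 2186, 3029 and 3024 in WT and 823, 1076 and 1211 in Mmp13-/- (−1.41 ± 0.19 SE, adjusted p = 0.000344). Col18a1, whose product is the source of endostatin, had 2517, 3450 and 3039 in WT and 972, 1189 and 1351 in Mmp13-/- (−1.36 ± 0.18 SE, adjusted p = 0.000276). In both genes WT sample 2 was the lowest WT library and Mmp13-/- sample 6 the highest Mmp13-/- library, and the genotypes were still apart. Their ratio overlapped between genotypes (difference −0.05, exact two-sided permutation test, p = 0.7), but not after the GC correction, where the difference was −0.37 (0.11 to 0.27 in WT, −0.27 to −0.13 in Mmp13-/-). With the GC correction Col15a1 passed narrowly (−0.52, adjusted p = 0.0494) and Col18a1 did not (−0.16, adjusted p = 0.414).

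Col7a1 and Col17a1 anchor stratified epithelium, the former as anchoring fibrils and the latter as a transmembrane collagen of hemidesmosomes. Col7a1, with Hspg2, had the greatest fall of the 31 genes, with 3466, 4196 and 4137 in WT and 1319, 1145 and 1332 in Mmp13-/-, a 3.11-fold lower level (−1.64 ± 0.15 SE, adjusted p = 7.86e-05). Col17a1 had 10101, 15014 and 13255 in WT and 5295, 3968 and 4709 in Mmp13-/- (−1.46 ± 0.21 SE, adjusted p = 0.000411). Genotypes did not overlap in either gene, and both passed with the GC correction (−0.39, adjusted p = 0.0261, and −0.53, adjusted p = 0.0326). By its WT mean per kilobase, Col17a1 (78.7 ± 15.3 CPM, SD, n = 3) was close to Col4a1 (73.1 ± 4.15), a gap smaller than its spread. Col17a1 differed 1.49-fold among WT libraries, with the lowest level in WT sample 2.

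Epithelial markers were read in the same libraries. The summed normalized count of 13 epithelial markers was 82842 in WT sample 2, 165693 and 163737 in the other WT libraries and 48398 to 92260 in Mmp13-/-, and it too was lowest in WT in sample 2. Of the 13, 3 fell (Krt5 and Krt14 among them), 1 rose (Krt18) and 9 did not pass, shares near or below the 24.3% and 27.3% of all genes, and none was at 0 in all libraries. Krt14, a keratin of basal epithelium, had 35717, 79264 and 71857 in WT libraries and 29180, 18079 and 27012 in Mmp13-/- libraries. Under the GC correction neither Krt5 (−0.38, adjusted p = 0.253) nor Krt14 (−0.37, adjusted p = 0.349) passed, 4 of the 13 rose and 1 fell, and their median was 0.19. Of all genes 26.4% rose and 10.9% fell under that correction, with a median of 0.28. Sums of the genotypes overlapped with Krt14, the most abundant of the markers, included. Without Krt14 they overlapped too, at 47125 to 91880 in WT and 30319 to 63080 in Mmp13-/-. The part of epithelial content in the fall of Col7a1, Col17a1 and Lamb3 was not tested. In bulk RNA, fewer cells of a type and less RNA per cell cannot be told apart.

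Proteins of the Fraser complex, which hold embryonic epithelium to its dermis, varied more within WT than between genotypes, and none passed. Fras1 had 4221, 3116 and 2159 in WT and 2854, 2577 and 2068 in Mmp13-/- (−0.34, adjusted p = 0.254). Frem2 had 2402, 1766 and 1389 in WT and 1680, 1607 and 1601 in Mmp13-/- (−0.19, adjusted p = 0.444). Frem1 had 1138, 700 and 407 in WT and 1257, 1417 and 1025 in Mmp13-/-, with a change of 0.72 ± 0.31 SE that missed the threshold (adjusted p = 0.0718). WT sample 2 was the one WT library inside the Mmp13-/- range of Frem1, and without it Frem1 rose over 2-fold (1.08, adjusted p = 0.0078). The Frem1 to Frem2 ratio was 0.361 in WT and 0.712 in Mmp13-/-, and did not overlap (exact two-sided permutation test, p = 0.1). The GC-corrected difference was 0.60 on the log2 scale.

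Of the remaining partners, 1 fell and 3 did not pass. Npnt, an integrin ligand, had 1212, 825 and 737 in WT and 751, 936 and 666 in Mmp13-/- (−0.24, adjusted p = 0.365). Smoc1 and Smoc2, calcium-binding relatives of SPARC, did not pass either. Smoc1 was low, with 121 to 223 in WT and 150 to 205 in Mmp13-/-, and Smoc2 had 1577 to 1906 and 1312 to 1814. Tinagl1, a secreted matrix protein, had 416, 544 and 480 in WT and 306, 328 and 363 in Mmp13-/- and fell (−0.53 ± 0.16 SE, adjusted p = 0.0165). Tinagl1 lost its call without WT sample 4 (−0.47, adjusted p = 0.0569) and rose instead with the GC correction (0.57, adjusted p = 0.0113), the sole called gene of the 31 whose direction turned with both calls passing.

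**Figure D4:**
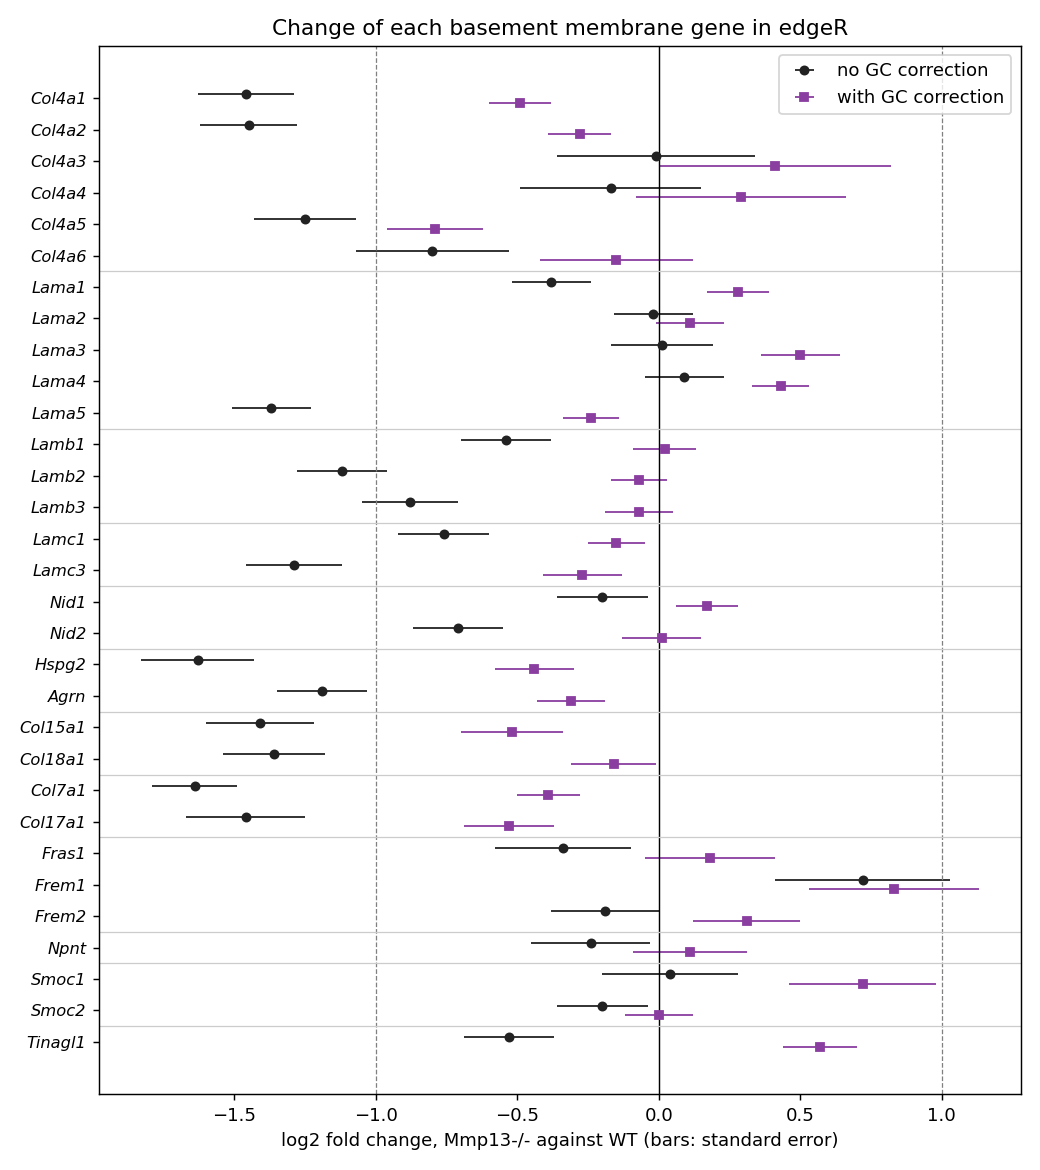
Log2 fold change of Mmp13-/- against WT for the 31 basement membrane genes, with bars of 1 SE, as fitted (circles) and with the correction for GC content (squares), and dashed lines at a 2-fold change. Values as fitted reach −1.64 for Col7a1, and with the correction the lowest is −0.79 for Col4a5.

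WT libraries also differed among themselves. In 7 of the 31 genes the highest WT library exceeded the lowest more than 1.5-fold (Col4a5, Col4a6, Fras1, Frem1, Frem2, Npnt and Smoc1). All 7 were highest in WT sample 2 and lowest in WT sample 5, an order shared by 14 of the 31 genes. Another 11, with Col15a1, Col17a1, Col18a1 and Col7a1 among them, were highest in WT sample 4 and lowest in WT sample 2. These orders were not counted over all genes tested. In Mmp13-/-, 2 genes exceeded 1.5-fold, Col4a3 and Col4a4. Median ratios of highest to lowest were 1.24 in WT and 1.26 in Mmp13-/-.

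Without Mmp13-/- sample 6 the same 12 genes fell over 2-fold, and 17 in place of 19 fell at any fold. When each library was left out in turn, the count over 2-fold was 12 to 14. The added genes were Col4a6 and Lamb3, without Mmp13-/- sample 1 or without WT sample 5. Shares of all genes were not computed for the fits that left out a library, where the median of all genes was 0.07 to 0.18. After subtraction of the receptor genes' background rate, 11 of the 12 fell over 2-fold, Lamb2 being the exception at −0.97, against 8.45% of all genes. That fit had 0 that rose over 2-fold and 18 that fell at any fold, and Frem1 rose (0.82, adjusted p = 0.0492), against 16.2%, 24% and 25.1% of all genes.

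Other genes of the same pathway were read from 3 lists. Counts of each list, at any fold, are to be read against the 24.3% of all genes that fell and the 27.3% that rose. The median of all genes tested was 0.10, and 0.28 with the GC correction. Of 12 further basement membrane components tested, 5 fell, 1 rose and 6 did not pass, with a median of −0.69. Vwa1, a partner of perlecan, fell the most, from 830, 1752 and 1392 in WT to 267, 305 and 246 in Mmp13-/- (−2.28 ± 0.25 SE, adjusted p = 0.000147), as it did after the GC correction (−1.33, adjusted p = 0.00299). Frem3 rose from a level near the floor, 1.6 to 3.49 in WT against 20.9 to 49.6 in Mmp13-/-, the libraries with the higher receptor gene background. The median of this list was 0.03 with the GC correction.

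The list of receptors and linkers of the basement membrane had 18 genes, of which 10 fell, 4 rose and 4 did not pass, with a median of −0.66. These counts include Lmna, which encodes lamins of the cell nucleus and is neither a receptor nor a linker of the basement membrane. Lmna fell (−1.04, adjusted p = 0.00335), but did not pass with the GC correction (−0.41, adjusted p = 0.138). Plec, which encodes the plectin that ties hemidesmosomes to intermediate filaments, fell the most (71201, 88278 and 79189 in WT against 23435, 24057 and 19306 in Mmp13-/-, −1.84 ± 0.23 SE, adjusted p = 0.000225). Itgb1, the common integrin beta chain, rose the most, from 4532, 3549 and 4354 to 9628, 11398 and 8374 (1.24 ± 0.19 SE, adjusted p = 0.00056), and did so with the GC correction (1.07, adjusted p = 0.000633). With that correction Plec fell too (−0.62, adjusted p = 0.016), and the list had a median of −0.13.

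Enzymes and chaperones of collagen IV synthesis and crosslinking numbered 15, of which 9 fell, 1 rose and 5 did not pass, with a median of −0.48. P3h3, of the prolyl hydroxylase family, fell the most (3574, 4045 and 3637 in WT against 1459, 1804 and 1429 in Mmp13-/-, −1.26 ± 0.15 SE, adjusted p = 0.000207), although not with the GC correction (−0.01, adjusted p = 0.947). Plod2, a lysyl hydroxylase that acts on fibrillar collagen, was the gene that rose, from 2103, 979 and 899 in WT to 4808, 4941 and 3962 in Mmp13-/- (1.78 ± 0.30 SE, adjusted p = 0.00103). The median of this list was 0.03 with the GC correction.

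Markers of other cells that carry a basement membrane are to be read against the 24.3% of all genes that fell and the 27.3% that rose. Of 18 endothelial markers 13 fell, 1 rose and 4 did not pass (median −0.64), and their summed normalized count was 19596 to 22452 in WT and 12471 to 16853 in Mmp13-/-. Of 14 skeletal muscle markers 8 fell and 6 did not pass (median −1.11), with sums of 2811404 to 3341212 in WT and 799623 to 1744498 in Mmp13-/-. Of 12 mural cell markers 5 fell and 4 rose (median −0.32), with sums of 24891 to 26815 and 16838 to 23202. Of 12 Schwann cell markers 3 fell and 1 rose (median −0.30), with sums of 3659 to 10881 and 3919 to 4122. Sums of the endothelial and muscle lists did not overlap between genotypes, with or without their most abundant gene. Those of the mural list overlapped without Pdgfrb (19277 to 20687 in WT, 14005 to 19436 in Mmp13-/-), and those of the Schwann cell list, whose counts are close to or below the shares of all genes, overlapped throughout. With the GC correction the medians became 0.09, −0.83, 0.26 and 0.15, so that muscle alone of these 4 lists kept a negative median. No marker in these 4 lists was at 0 in all libraries, and the part of vessel or muscle content in the fall of the 31 genes was not tested.

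Markers of odontoblasts, pulp mesenchyme and macrophages, cells that lie largely outside basement membranes, were read for comparison. Their counts too are to be read against the 24.3% of all genes that fell and the 27.3% that rose. Of 10 odontoblast markers 4 fell and 2 rose (median −0.28), and of 10 mesenchymal markers 5 fell and 4 rose (median −0.40). Of 12 macrophage markers 5 rose and 0 fell (median 0.41), with sums of 5816 to 6118 in WT and 11121 to 18185 in Mmp13-/-. Without Lyz2, the marker that rose the most, the macrophage sums were closer, at 5013 to 5294 in WT and 6693 to 8381 in Mmp13-/-. Sums of the odontoblast list were 1016014 to 1228699 in WT and 306996 to 385632 in Mmp13-/-, and those of the mesenchymal list 419395 to 646869 and 192133 to 260746. Both sums were mostly a single fibrillar collagen, Col1a1 and Col3a1 respectively. Without it they overlapped, at 55552 to 97664 in WT and 75505 to 110307 in Mmp13-/- for odontoblasts and at 41853 to 46969 and 37925 to 53155 for mesenchyme. Corrected for GC, the 3 medians were 0.34, 0.28 and 1.20.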

How the data were processed

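RNA from pulp of 3 WT and 3 Mmp13-/- mice was sequenced, with groups taken from the genotype that GEO's labels give. The deposited table gives estimated counts per gene, made by the authors in Strand NGS from aligned reads, and log2 values that the authors normalized from those counts. The log2 values, recomputed from the counts, came within 0.01 for 100% of entries. The submitters' processing notes name DESeq and mm10, and aligner settings, annotation release and strand are not given in the sources used here. Of the estimated counts 65.5% were not whole, and all were rounded before testing.

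Counts were tested in R 4.3.3 with edgeR 4.0.16 (TMM factors, filterByExpr by genotype, quasi-likelihood test, Benjamini-Hochberg adjustment over 24534 genes, no covariates). Normalized counts are counts over the TMM-scaled library size, brought to the mean library, and SE and fold changes are those of that fit. Position, exon length and GC content came from GENCODE M21 on GRCm38. The GC correction was a loess fit per library (span 0.3, fitted where mean log2 CPM exceeded 3), entered as an offset. The background rate per kilobase came from 1454 protein-coding odorant and vomeronasal receptor genes. Pair ratios used counts per kilobase with a pseudocount of 0.5 and exact two-sided permutation tests. Alternatives were RLE, upper-quartile and no factors, no filter or one of 10 counts in all samples, limma 3.58.1 on the deposited log2 values, DESeq2 1.42.0, a pseudocount of 5 for pairs, background subtraction and each library left out. The procedures were tested on simulated data. Those data varied less between samples than the real counts and lacked the higher receptor gene background of the Mmp13-/- libraries. No result above rests on them. All 31 genes are named, and list genes are named where they had the highest or lowest passing change of a list or were among its first 3 markers. The genes and lists were chosen with earlier results of these data known. Ttn, Gm10800 and Rtraf are also named, for their share of counts or exon bases, chosen after their values were seen. Lmna is named because it does not belong in its list.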

Additional observations from a re-analysis of the deposited data

How the results depend on the processing

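Counts of the 31 genes were the least stable under the GC correction, which by construction removes the slope over the genes fitted. It gave 0 that fell over 2-fold in place of 12. At any fold it gave 6 that fell in place of 19, and 3 that rose in place of 0. Total counts without factors gave 12 that fell at any fold and 1 that rose, upper-quartile factors gave 2 that rose, and background subtraction, no filter and the filter of 10 counts gave 1 each. Leaving out a library gave 12 to 14 that fell and 0 to 1 that rose over 2-fold, and 15 to 19 that fell and 0 to 1 that rose at any fold. The gene that rose was Frem1, without WT sample 2. Upper-quartile factors and total counts moved the median of all genes tested to 0.32 and 0.21, from 0.10, so their counts are to be read against that shift. Shares of all genes were computed for the main fit, the GC correction and background subtraction alone. With the GC correction, the log2 fold change changed sign for Col4a3 0.41, Col4a4 0.29, Lama1 0.28, Lama2 0.11, Lamb1 0.02, Nid1 0.17, Nid2 0.01, Fras1 0.18, Frem2 0.31, Npnt 0.11, Smoc2 0 and Tinagl1 0.57. With upper-quartile factors, it did so for Col4a3 0.25, Col4a4 0.07, Lama2 0.20, Nid1 0.01 and Frem2 0.02. Without factors, it did so for Col4a3 0.02 and Lama2 0.09. With RLE factors, it did so for Col4a3 0. With the filter of 10 counts, it did so for Col4a3 0.12 and Lama2 0.11. With no filter, it did so for Lama3 −0.09, Lama4 −0.02 and Smoc1 −0.07. With background subtraction, it did so for Lama2 0.12. With DESeq2, it did so for Lama3 −0.03 and Smoc1 −0.01. With limma, it did so for Lama3 −0.05. Leaving out a library turned the sign of Col4a3 −0.53 to 0.16, Col4a4 −0.56 to 0.03, Lama3 −0.16 to 0.11, Lama4 −0.05 to 0.14 and Smoc1 −0.25 to 0.16 (lowest to highest log2 fold change). It did the same for the genotype difference in the ratios of Col4a1 to Col4a2 −0.03 to 0.01, Col4a3 to Col4a4 −0.04 to 0.27 and Col15a1 to Col18a1 −0.08 to 0.01. List medians moved to 0 for the 31 genes, 0.09 for the endothelial markers, 0.26 for the mural cell markers, 0.19 for the epithelial markers, 0.34 for the odontoblast markers, 0.28 for the pulp mesenchymal markers, 1.20 for the macrophage markers, 0.03 for the other basement membrane components, −0.13 for the basement membrane receptors and linkers and 0.03 for the collagen IV synthesis and crosslinking genes with the GC correction. With background subtraction they moved to −0.61 for the 31 genes, −0.26 for the pulp mesenchymal markers, −0.97 for the other basement membrane components and −0.34 for the collagen IV synthesis and crosslinking genes, and without factors to −0.58 for the 31 genes, −0.28 for the pulp mesenchymal markers and −0.34 for the collagen IV synthesis and crosslinking genes. The cause of these changes was not tested. For single genes of the 31, 34 further values lost a call and 9 gained one with the direction kept. No paired analysis was possible because the genotypes share a single replicate number. Depth limits Col4a3, Col4a4 and Smoc1, which had the fewest counts, and in Mmp13-/- sample 6 the counts of Col4a3 and Col4a4 were less than 2 times the background rate.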
